A study of Homo sapiens with 4 samples.

Results

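The 10 genes described here, PTBP1, PTBP2, PTBP3, SRRM3, SRRM4, RBFOX2, RBFOX3, NOVA2, ELAVL3 and ELAVL4, encode RNA-binding proteins and splicing factors, most of which are known for the transcript programme of neurons, while PTBP1, PTBP3 and RBFOX2 are also made in many other tissues. They were listed by name, with results of the same libraries in view, and were found by their gene identifiers: 10 of the 10 were among the 69222 gene identifiers of the count tables, and 8 had enough reads to enter the fit over 20319 genes. The values that led to the choice are those of the contrast described below, so the members' values are given as a description, with no test of their own. The study title concerns RPRD1B, a protein that binds phosphorylated RNA polymerase II, and the polyadenylation of cell cycle genes. Poly(A) RNA was sequenced from HEK293T, a line derived from human embryonic kidney that carries the SV40 large T antigen. Both groups were transduced with a short hairpin RNA (shRNA): 2 libraries carried a control hairpin (shCtrl 1 and 2) and 2 carried a hairpin against RPRD1B (shRPRD1B 1 and 2). The labels name 1 cell line, 1 hairpin name per group and no dose or time, and they do not say that the libraries of a group came from separate cultures. A p-value therefore measures the spread between these libraries, which may be technical.

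Most genes with several exons can be spliced in more than one way, and RNA-binding proteins decide which exons are kept. PTBP1 binds pyrimidine-rich stretches beside many neuronal exons and keeps them out of the mRNA in most dividing cells. Its paralogue PTBP2 is the form of neural progenitors and young neurons, and PTBP3 is best known from blood cells. SRRM3 and SRRM4 promote the inclusion of neuronal microexons, RBFOX and NOVA proteins bind short motifs near alternative exons, and ELAVL3 and ELAVL4 are neuronal Hu proteins that bind AU-rich and U-rich RNA. In the textbook account, PTBP1 also represses its own relative: it causes skipping of a short exon in the PTBP2 pre-mRNA, which shifts the reading frame and sends the transcript to nonsense-mediated decay.

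That short exon is shown for the 3 PTBP genes, and it was picked after the values of PTBP1 and PTBP2 were seen. Whether PTBP1 had a part in the level of PTBP2 was not tested. In GENCODE 29 the exon is 34 bases long in each of the 3 genes. That length leaves a remainder of 1 after division by 3, so that skipping changes the frame. The sequences are on the transcript strand of GRCh38, 5′ to 3′, and capitals mark bases that differ from PTBP2.
PTBP2: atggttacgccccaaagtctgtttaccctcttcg
PTBP1: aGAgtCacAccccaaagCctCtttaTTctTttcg
PTBP3: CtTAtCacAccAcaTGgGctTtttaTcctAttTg
The PTBP2 copy is exon 10 of its annotated transcript and lies at chr1:96806419-96806452 on the plus strand. The PTBP1 copy is exon 11, at chr19:807869-807902 on the plus strand, and shares 25 of 34 bases with PTBP2. The PTBP3 copy is exon 10, at chr9:112231380-112231413 on the minus strand, and shares 21 of 34 bases with PTBP2. Of the annotated PTBP2 transcripts with the exons that follow it, 6 held the exon and 3 ran into them from the exon before it. Those 3 are annotated as processed transcripts, not as targets of nonsense-mediated decay. For PTBP1 the numbers were 6 with the exon and 2 without, and both of the latter are annotated as targets of nonsense-mediated decay. For PTBP3 they were 5 and 0. The deposited values are counts per gene, so the use of this exon was not read from them.

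Before the members, the targeted gene was checked. RPRD1B stood at 50.4 and 50.1 CPM (read counts scaled to library size) in the 2 shCtrl libraries and at 27.2 and 35.5 CPM in the 2 shRPRD1B libraries. The latter were lower, and the log2 fold change was -0.68 ± 0.16 (SE), with an adjusted p of 0.448 in edgeR's quasi-likelihood test (Benjamini-Hochberg over all tested genes) and 0.0467 in DESeq2. Total counts ran from 47732913 to 65572391 per library. Among 8966 genes of at least 16 CPM, the log2 ratio of one library to the other within a group had an SD of 0.171 in the controls, against 0.393 in the knockdown libraries, which stood further apart. Markers listed for a kidney epithelial line summed to between 355 and 406 CPM per library, with KRT19 at 0. VIM and CDH2 made up most of that sum in every library, so it is not a level of epithelial genes alone. Of the 7 of these markers in the fit, 2 had log2 fold changes above 0 and 5 below (KRT8, KRT18, EPCAM, CDH1 and VIM). Leukocyte markers summed to between 2.54 and 4.19 CPM, with AIF1 at 0. Glial markers summed to between 65.0 and 89.0 CPM, with MOG at 0, and fibroblast markers to between 22.2 and 38.0 CPM, with COL1A2 at 0. Both sums were lower in the shRPRD1B libraries, but each rested mostly on 1 gene. SLC1A3 made up most of the glial sum, at 61.3 and 63.0 CPM in shCtrl against 38.0 and 51.5 CPM in shRPRD1B. COL1A1 made up most of the fibroblast sum. Of the 6 glial markers in the fit, 3 had log2 fold changes above 0 and 3 below. Of the 4 fibroblast markers in it, 1 lay above 0 and 3 below. Neuron markers summed to 269 and 255 CPM in shCtrl and to 333 and 277 CPM in shRPRD1B. Of these 13 neuron markers SLC17A6 was at 0 in every library, and TUBB3, STMN2 and DCX were under 1 CPM in every library. For all of these marker lists, a level of 0 or near it does not show a low transcript level, as given for HNRNPL below. Of the 13, 10 entered the fit, with 7 log2 fold changes above 0, 3 below (TUBB3, NEFL and NEFM) and a median of 0.36, as large as that of the members. For 7 the knockdown libraries lay wholly above the controls, and for 1 wholly below. The shares over all tested genes were 20.3% and 20.6%. EdgeR called 1 of the neuron markers, and DESeq2 called 2, both higher (SYP and SYN1). Over all tested genes, edgeR called 0.0689% and DESeq2 1.18%. NEFM, a neurofilament gene, stood at 105 and 97.0 CPM in the controls, against 93.4 and 71.2 CPM after knockdown. SYN1, a synapsin gene, stood at 0.591 and 0.740 CPM, against 1.95 and 2.43 CPM. The marker that edgeR called, SYP, a synaptic vesicle protein, stood at 27.5 and 24.2 CPM in the controls, against 77.3 and 78.0 CPM after knockdown. VIM, CDH2, SLC1A3, COL1A1, NEFM, SYN1 and SYP were named after their values were seen. The part of other cell types in the members' values was not tested, and in RNA from whole cultures fewer cells of a type and less RNA per cell cannot be told apart.

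Of the 8 members that entered the fit, PTBP2, ELAVL4, RBFOX3 and NOVA2 stood at 1.48 to 4.01 times the shCtrl mean in shRPRD1B, PTBP1 stood lower at 0.791 times, and PTBP3, SRRM3 and RBFOX2 lay between 0.909 and 1.11 times. In all, 6 had a positive log2 fold change and 2 a negative one. For 5 members the knockdown libraries lay wholly above the controls, and for 2 they lay wholly below. Among all tested genes, 20.3% lay wholly above and 20.6% wholly below, and 40.9% did not overlap in either direction. PTBP2 was the 1 member that edgeR called, against 0.0689% of all tested genes (14 of 20319); 0.0295% were called higher and 0.0394% lower. The PTBP2 call was absent with limma voom and when 2 libraries had to reach 5 CPM, both of which called 0 genes of any kind (1460 and 876 had an unadjusted p under 0.05). DESeq2 called PTBP2 alone among the members, against 1.18% of all tested genes. An unadjusted p under 0.05 was found for 7.49% of all tested genes in edgeR. Since the members were chosen on this contrast, nothing is read from these shares. SRRM4 and ELAVL3 had too few reads to enter the fit, so the 8 are not a sample of all 10 that is free of selection by level.

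**Figure D1:**
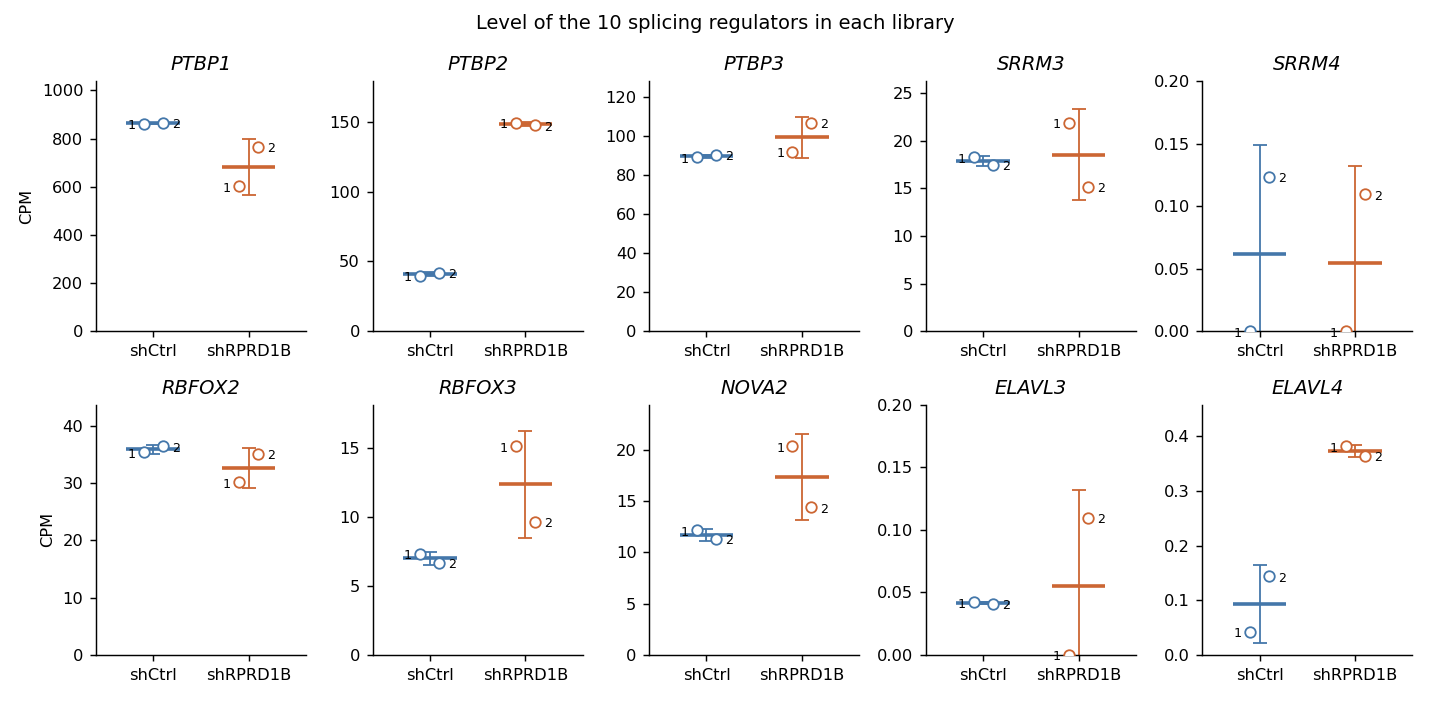
Level of each of the 10 members in CPM, 1 panel per gene with its own axis from 0; points are libraries (numbered 1 and 2), horizontal lines group means and bars the SD of 2 libraries. PTBP1 has the highest levels, between 601 and 866 CPM, PTBP2 goes from near 40.8 to near 148.5 CPM, and SRRM4, ELAVL3 and ELAVL4 lie under 1 CPM in all 4 libraries.

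PTBP2 (chromosome 1, 96721784 to 96823739, plus strand, GRCh38.p14) is the neural polypyrimidine tract-binding protein. Its level was 39.8 and 41.7 CPM in the 2 shCtrl libraries, 149.4 CPM in shRPRD1B 1 and 147.7 CPM in shRPRD1B 2. The groups did not overlap, and the libraries within each group lay close together. The control mean was 40.8 ± 1.36 CPM and the knockdown mean 148.5 ± 1.177 CPM (SD, n = 2 each), a ratio of 3.64 (log2 fold change 1.87 ± 0.11, 95% interval 1.59 to 2.14). The counts behind these values were 1886 and 2031 in shCtrl and 9788 and 8097 in shRPRD1B. Relative to the shCtrl mean, shRPRD1B 1 stood at 3.66 times and shRPRD1B 2 at 3.62 times. PTBP2 differed from most genes in how near the 2 knockdown libraries were: their log2 ratio was -0.02, while the median absolute value was 0.246 among 10771 protein-coding genes of at least 5 CPM, and 3.50% of those genes had a smaller one. In the same set, 19 genes had a larger log2 fold change than PTBP2.

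PTBP1 (chromosome 19, 797452 to 812312, plus strand) is the repressor that is expressed in most tissues. It stood at 861 and 866 CPM in shCtrl 1 and 2, at 601 CPM in shRPRD1B 1 and at 765 CPM in shRPRD1B 2. Both knockdown libraries were lower than both controls, shRPRD1B 1 by more. Mean levels were 863.5 ± 2.999 CPM in shCtrl and 683 ± 116 CPM in shRPRD1B (SD, n = 2 each). The log2 fold change was -0.34 ± 0.15, with a 95% interval from -0.70 to 0.03. Relative to the shCtrl mean, shRPRD1B 1 stood at 0.696 times and shRPRD1B 2 at 0.886 times, so the size of the difference changed with the library used.

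PTBP3 (chromosome 9, 112217715 to 112379882, minus strand), a paralogue studied mainly in haematopoietic cells, stood at 89.0 and 90.3 CPM in shCtrl, against 91.9 and 107 CPM in shRPRD1B. Both knockdown libraries lay above the controls, shRPRD1B 1 by little. Mean levels were 89.7 ± 0.867 CPM in shCtrl and 99.3 ± 10.5 CPM in shRPRD1B (SD, n = 2 each). The log2 fold change of 0.15 ± 0.12 had a 95% interval from -0.16 to 0.45. No word of 50 bases is shared between the annotated transcripts of any 2 members, so a read of at least that length matching one member exactly along that length cannot match another.

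Within each library, the balance of the 3 PTBP transcripts can be read without a comparison of library sizes. The PTBP1 level was 21.6 and 20.7 times that of PTBP2 in shCtrl 1 and 2, 4.03 times in shRPRD1B 1 and 5.18 times in shRPRD1B 2. The groups did not overlap, and the means were 21.2 ± 0.632 and 4.60 ± 0.817 (SD, n = 2 each). Between the knockdown libraries, PTBP1 differed while PTBP2 was nearly equal. PTBP2 stood at 1.63 and 1.38 times the level of PTBP3 in shRPRD1B, and at 0.447 and 0.462 times in shCtrl. Of the CPM summed over the 3 genes, PTBP2 took 4.02% and 4.18% in shCtrl and 17.7% and 14.5% in shRPRD1B. The share of PTBP1 was 87.0% and 86.8% in shCtrl and 71.4% and 75.04% in shRPRD1B, so PTBP1 remained the main PTBP transcript by count in all 4 libraries. PTBP3 took between 8.99% and 10.9%. The summed level of the 3 genes was 994 ± 5.22 CPM in shCtrl and 931 ± 125 CPM in shRPRD1B (SD, n = 2 each), with the knockdown libraries on either side of the controls at 842 and 1020 CPM. Longer transcripts yield more reads, and the annotated PTBP2 transcript (12014 bases, of which 10336 are 3′ UTR) is longer than that of PTBP1 (3691 bases). Per kilobase of transcript, the ratio of PTBP1 to PTBP2 was 70.4 and 67.5 in shCtrl and 13.1 and 16.9 in shRPRD1B. Per kilobase of coding sequence the same ratio was 19.8 and 18.9 in shCtrl and 3.68 and 4.73 in shRPRD1B.

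**Figure D2:**
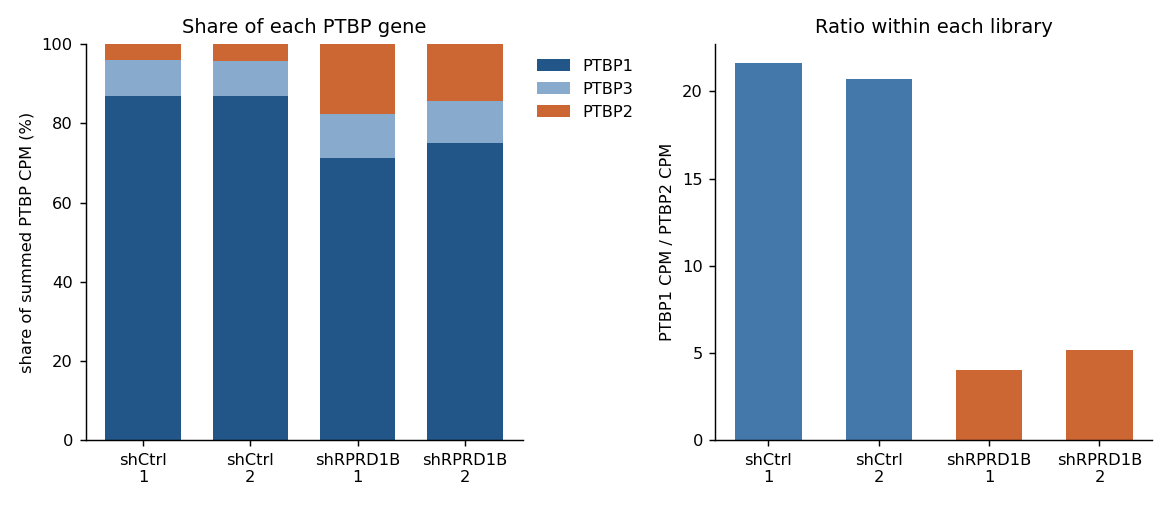
Left, stacked bars with the share of each PTBP gene in their summed CPM (percent) in each library; right, bars with the ratio of PTBP1 CPM to PTBP2 CPM. The PTBP2 share is 4.02% and 4.18% in the shCtrl libraries and 17.7% and 14.5% in the shRPRD1B libraries, and the ratio is 21.6 and 20.7 against 4.03 and 5.18.

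SRRM3 (chromosome 7, 76201896 to 76287287, plus strand), a microexon activator of neurons and endocrine cells, stood at 18.2 and 17.5 CPM in shCtrl, 21.9 CPM in shRPRD1B 1 and 15.1 CPM in shRPRD1B 2. The knockdown libraries lay on either side of the controls. The log2 fold change was 0.05 ± 0.21, with a 95% interval from -0.46 to 0.56. It was -0.24 without shRPRD1B 1, so the direction rested on that library. Its paralogue SRRM4 (chromosome 12, 118981541 to 119163051, plus strand), the neural microexon activator, had 0 and 6 counts in the controls, and again 0 and 6 after knockdown. A count of 0 allows a level of up to 3 counts, or 0.0633 CPM in shCtrl 1 and 0.0458 CPM in shRPRD1B 1. No difference in SRRM4 was detectable at this depth. A low count does not show a low transcript level in these tables: HNRNPL, a splicing factor gene used by nearly all cells, had between 6 and 11 counts per library.

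RBFOX2 (chromosome 22, 35738736 to 36028824, minus strand) is the broadly expressed RBFOX protein. It stood at 35.3 and 36.4 CPM in shCtrl, against 30.1 and 35.1 CPM in shRPRD1B, where shRPRD1B 2 lay just below the lower control. The log2 fold change was -0.14 ± 0.13, with a 95% interval from -0.47 to 0.19. RBFOX3 (chromosome 17, 79089345 to 79665571, minus strand), whose product is the antigen NeuN of mature neurons, stood at 7.33 and 6.68 CPM in shCtrl, 15.1 CPM in shRPRD1B 1 and 9.63 CPM in shRPRD1B 2. The groups did not overlap, and shRPRD1B 1 stood further from the controls. Mean levels were 7.001 ± 0.458 CPM in shCtrl and 12.4 ± 3.87 CPM in shRPRD1B (SD, n = 2 each), a ratio of 1.77 (log2 fold change 0.83 ± 0.26, 95% interval 0.19 to 1.46). Relative to the shCtrl mean, shRPRD1B 1 stood at 2.16 times and shRPRD1B 2 at 1.38 times. RBFOX3 counts were 347 and 325 in shCtrl and 990 and 528 in shRPRD1B.

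NOVA2 (chromosome 19, 45933734 to 45973865, minus strand), a neuronal KH-domain protein that binds YCAY motifs, stood at 12.1 and 11.3 CPM in shCtrl, 20.3 CPM in shRPRD1B 1 and 14.4 CPM in shRPRD1B 2. As for RBFOX3, the groups did not overlap and shRPRD1B 1 was the higher knockdown library. Mean levels were 11.7 ± 0.591 CPM in shCtrl and 17.3 ± 4.201 CPM in shRPRD1B (SD, n = 2 each), a ratio of 1.48 (log2 fold change 0.57 ± 0.21, 95% interval 0.05 to 1.08). Relative to the shCtrl mean, shRPRD1B 1 stood at 1.74 times and shRPRD1B 2 at 1.23 times.

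ELAVL4 (chromosome 1, 50048055 to 50203772, plus strand), the Hu protein HuD of neurons, had 2 and 7 counts in the controls, against 25 and 20 after knockdown. Both knockdown libraries were higher, but all 4 levels were low, from 0.0422 CPM in shCtrl 1 to 0.382 CPM in shRPRD1B 1. The ratio of summed counts, scaled to library size, was 3.99 (9 against 45 counts). ELAVL4 passed the filter on low counts only through the shRPRD1B libraries, the group where it was high, so its difference supports nothing by itself. The fitted log2 fold change was 1.97 ± 0.65, with a 95% interval from 0.38 to 3.56. ELAVL3 (chromosome 19, 11451326 to 11481046, minus strand), the related protein HuC, had 2 and 2 counts in shCtrl, 0 in shRPRD1B 1 and 6 in shRPRD1B 2. These counts overlap between the groups, and 5.38% of the annotated exon bases of ELAVL3 overlap another gene, so part of them could belong to either. Counts this low have a further limit: in every library, genes with 2 counts (2722 to 2904) outnumbered genes with 1 count (2093 to 2271), and whether such low counts are independent reads was not tested.

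**Figure D3:**
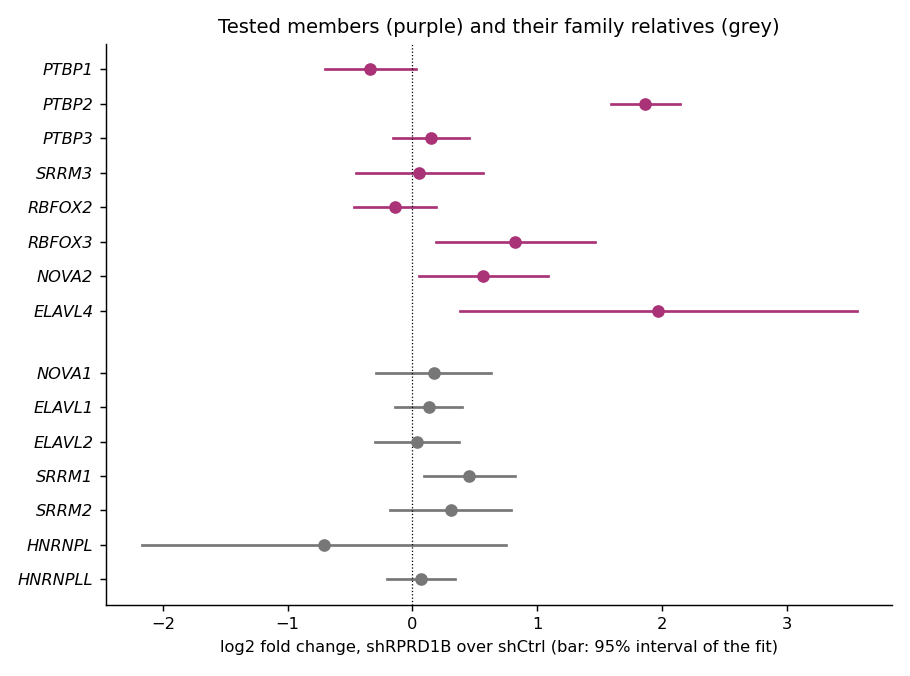
Log2 fold change (shRPRD1B over shCtrl, horizontal axis) of the 8 members in the fit (purple points) and 7 family relatives (grey points), with bars for the 95% interval of the fit. The PTBP2 point lies at 1.87 with a short bar (1.59 to 2.14), and ELAVL4 at 1.97 with the longest bar among the members (0.38 to 3.56). The 7 relatives lie between HNRNPL at -0.71 and SRRM1 at 0.46. HNRNPL has few counts and passed the filter on low counts only through shCtrl, where it was high.

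Placed in order of CPM per kilobase of transcript, PTBP1 came first in shCtrl at 234, followed by PTBP3 at 11.2, RBFOX2 at 5.17, SRRM3 at 4.94, PTBP2 at 3.39, RBFOX3 at 2.39 and NOVA2 at 1.499. ELAVL4 at 0.0235, ELAVL3 at 0.00881 and SRRM4 at 0.00727 closed the order. Of these neighbours only ELAVL3 and SRRM4 overlapped between the shCtrl libraries. In shRPRD1B PTBP1 was again first at 185, and PTBP3 and PTBP2, both at 12.4, overlapped. SRRM3 at 5.12, RBFOX2 at 4.70 and RBFOX3 at 4.22 followed, and each of them overlapped its neighbour among the 3. NOVA2 at 2.22, ELAVL4 at 0.0941, ELAVL3 at 0.0116 and SRRM4 at 0.00646 came last. The order depends on the length used. Per kilobase of coding sequence, PTBP2 at 25.3 came close below RBFOX2 at 26.5 in shCtrl, and at 92.2 it came next after PTBP1 in shRPRD1B, above PTBP3 at 59.3.

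The members did not move alike between the 2 knockdown libraries. The log2 ratio of shRPRD1B 2 to shRPRD1B 1 was 0.35 for PTBP1, 0.22 for PTBP3 and 0.22 for RBFOX2, but -0.65 for RBFOX3, -0.53 for SRRM3 and -0.50 for NOVA2. PTBP2 and ELAVL4 stood at -0.02 and -0.06. Across genes, that ratio moved with base composition. The genes of at least 16 CPM were put into 5 equal classes by the GC content of their transcript. The median ratio was 0.197 in the lowest class and -0.265 in the highest, against 0.0427 and -0.0604 for the ratio of shCtrl 2 to shCtrl 1. SRRM3 (68.0% GC), RBFOX3 (61.2% GC) and NOVA2 (57.0% GC) had ratios of the sign of their class median, but larger in size. That median was -0.265 for SRRM3 and RBFOX3 and -0.04 for NOVA2. PTBP3 and RBFOX2 also had the sign of their class median, and ELAVL4, at low counts, had the opposite sign. PTBP1 (59.4% GC) had a positive ratio where its class had a negative median, and PTBP2 (34.7% GC) lay near 0 where its class had a positive one. With a correction for GC content and transcript length per library, the log2 fold change of each of the 8 members kept its sign. The part of GC content in the differences between the groups was not tested beyond this correction.

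**Figure D4:**
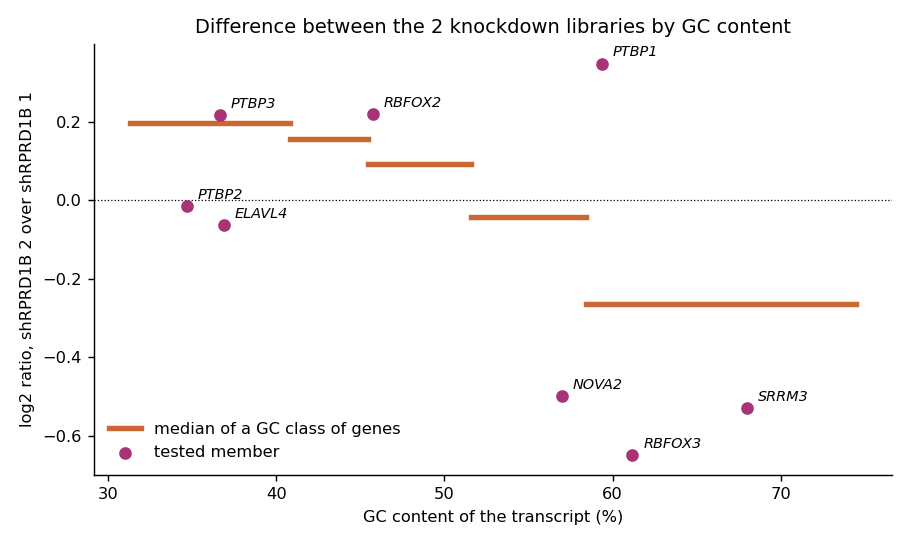
Log2 ratio of shRPRD1B 2 to shRPRD1B 1 (vertical axis) against the GC content of the transcript (percent) for the 8 members in the fit, as points, with a line at the median of each of 5 GC classes of the genes of at least 16 CPM. The class medians go from 0.197 to -0.265 with rising GC content, SRRM3, RBFOX3 and NOVA2 lie below 0, and PTBP1 lies above 0.

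The relatives of the members were read for comparison, though the list held no relative of the RBFOX genes with enough counts. Of 8 listed relatives, 7 entered the fit, with 6 log2 fold changes above 0, 1 below, a median of 0.13 and 0 called by edgeR or DESeq2 (1 had an unadjusted p under 0.05 in edgeR). The median was 0.01 without shRPRD1B 2 and 0.18 without shRPRD1B 1. Over all tested genes, the median was 0.00 and 50.5% lay above 0. NOVA1, the neuronal paralogue of NOVA2, stood at 11.04 and 13.13 CPM in shCtrl, against 12.2 and 15.1 CPM in shRPRD1B, which overlap (log2 fold change 0.17 ± 0.19). ELAVL1 (HuR), the Hu protein of most cells, stood at 252 and 240 CPM in shCtrl, against 262 and 278 CPM in shRPRD1B (0.13 ± 0.11). ELAVL2 overlapped between groups, at 20.9 and 22.6 against 21.3 and 23.2 CPM (0.03 ± 0.14). SRRM1, a splicing coactivator of the SRRM family, stood at 152 and 158 CPM in shCtrl, against 187 and 238 CPM in shRPRD1B (0.46 ± 0.15), which did not pass the edgeR test after adjustment. SRRM2, a core component of nuclear speckles, overlapped, at 700 and 757 against 733 and 1069 CPM (0.31 ± 0.20). HNRNPLL, a relative of the PTB proteins, had means of 64.9 and 68.1 CPM (0.07 log2 fold change), and HNRNPL was too low to read. HNRNPL, the 1 relative below 0, passed the filter on low counts only through the shCtrl libraries, the group where it was high. The difference of HNRNPL therefore supports nothing by itself. RBFOX1, the neuron and muscle form, had 0 and 1 counts in shCtrl and 4 and 0 in shRPRD1B and did not enter the fit. The higher NOVA2 value stood beside a smaller difference in NOVA1. For RBFOX3 the only paralogue in the fit was the member RBFOX2, with a log2 fold change of -0.14. ELAVL4, whose difference supports nothing by itself, stood beside smaller differences in ELAVL1 and ELAVL2. The difference between paralogues was not tested.

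Other regulators of tissue-specific splicing stood on both sides of 0. Of 22 listed, 20 entered the fit, 13 above and 7 below 0, with a median of 0.03 and 0 called by edgeR (2 in each direction had an unadjusted p under 0.05). DESeq2 called 1 of them higher, CELF3, a CELF protein of brain. CELF3 stood at 1.77 and 1.81 CPM in shCtrl, against 4.08 and 4.49 CPM in shRPRD1B (log2 fold change 1.25 ± 0.23), with an adjusted p of 0.319 in edgeR's test and 0.00861 in DESeq2. KHDRBS2, a neuronal STAR protein, had 2 and 1 counts in shCtrl and 21 and 18 in shRPRD1B (edgeR adjusted p = 0.324), and KHDRBS1 (SAM68), its widely expressed relative, stood at 402 and 397 against 300 and 313 CPM (-0.38 ± 0.11, edgeR adjusted p = 0.551). KHDRBS1 was lower without overlap between the groups. KHDRBS2 passed the filter on low counts only through the shRPRD1B libraries, the group where it was high, so its difference supports nothing by itself. ESRP2, an epithelial splicing regulator, stood at 4.45 and 3.51 CPM in shCtrl, against 2.41 and 1.35 CPM in shRPRD1B (-1.06 ± 0.33, edgeR adjusted p = 0.595).

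Proteins that work with PTBP or SRRM factors stood on both sides of 0. All 11 listed entered the fit, 8 above and 3 below 0, with a median log2 fold change of 0.11 and 0 called by edgeR or DESeq2 (1, RAVER2, had an unadjusted p under 0.05 in edgeR). The median was -0.03 without shRPRD1B 2 and 0.24 without shRPRD1B 1. RAVER2, a corepressor that binds PTBP1, stood at 55.0 and 54.9 CPM in shCtrl, against 39.5 and 47.2 CPM in shRPRD1B (-0.34 ± 0.13). Both knockdown libraries were lower, shRPRD1B 1 by more. The log2 ratio of shRPRD1B 2 to shRPRD1B 1 was 0.26 for RAVER2 (42.3% GC), where the median of its GC class was also positive (0.16). The other named partners were the SR protein kinase gene SRPK1 (0.19 ± 0.13), HNRNPH1 (0.46 ± 0.31), which encodes a binder of G-rich RNA, and MATR3 (0.29 ± 0.23), whose nuclear matrix protein binds PTBP1. MATR3 stood at 3.06 to 4.56 CPM, and as for HNRNPL, a low count in these tables does not show a low transcript level.

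The gene-level counts of transcripts with exons known to respond to the members were also read. Genes with PTBP-regulated exons numbered 18, of which 15 entered the fit, 11 above and 4 below 0, with a median of 0.14 and 0 called by edgeR or DESeq2 (2 above 0 had an unadjusted p under 0.05 in edgeR). FLNA, a filamin gene, stood at 696 and 715 CPM in shCtrl, against 838 and 1135 CPM in shRPRD1B (0.48 ± 0.17). TPM1, a tropomyosin gene, and GRIN1, an NMDA receptor subunit gene, had log2 fold changes of 0.27 ± 0.13 and 0.64 ± 0.35. Genes with SRRM4-regulated microexons numbered 11, all in the fit, 6 above and 5 below 0, with a median of 0.02 and 0 called by either tool (1 above 0 had an unadjusted p under 0.05 in edgeR). UNC13B, a synaptic vesicle priming gene, was that one, at 65.0 and 67.5 CPM in shCtrl and 78.9 and 96.5 CPM in shRPRD1B (0.40 ± 0.14). EIF4G3, CPEB4 and APBB1 had values of 0.26 ± 0.19, -0.24 ± 0.18 and 0.10 ± 0.15. Whether these exons were kept or skipped was not measured here.

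REST represses neuronal genes outside neurons, and SRRM4 is known to change the splicing of REST. REST itself stood at 39.7 and 47.9 CPM in shCtrl, against 33.7 and 46.2 CPM in shRPRD1B, so the groups overlapped (log2 fold change -0.13 ± 0.19, edgeR adjusted p = 0.862). Of 13 listed genes of REST and its corepressors, 13 entered the fit, 9 above and 4 below 0, with a median of 0.09 and 0 called by edgeR or DESeq2 (0 had an unadjusted p under 0.05 in edgeR). RCOR1, the corepressor CoREST, was highest in shRPRD1B 2, at 43.8 and 51.0 against 51.9 and 71.5 CPM (0.38 ± 0.19). The corepressor gene SIN3A, the histone methyltransferase gene EHMT2 and the deacetylase gene HDAC2 had log2 fold changes of 0.15, 1.19 and 0.09, that of EHMT2 with an SE of 1.39 and from 2, 10, 35 and 0 counts. Of 14 neuronal transcription factor genes, 9 entered the fit, 4 above and 5 below 0, with a median of -0.06 and 0 called by edgeR (1 in each direction had an unadjusted p under 0.05). MYT1, a zinc finger factor of neurons, had counts of 2 and 18 in shCtrl and 83 and 64 in shRPRD1B (2.54 ± 0.61, edgeR adjusted p = 0.467). SOX11, a factor of immature neurons, went the other way at low counts, with 23 and 32 in shCtrl and 2 and 2 in shRPRD1B (-4.01 ± 0.62), and its adjusted p was 0.151 in edgeR's test and 0.0258 in DESeq2, which called it lower. MYT1 reached the filter on low counts in both libraries only in shRPRD1B, and SOX11 only in shCtrl, the group where each was high. The differences of MYT1 and SOX11 therefore support nothing by themselves. POU3F2 and ISL1, a POU and a LIM homeobox gene of neurons, had log2 fold changes of 0.22 and -0.19. These 9 transcription factor genes stood on both sides of 0, while the neuron markers given above stood mostly above it. The median of the 9 changed sign when 1 library was left out, to 0.04 without shCtrl 1 and 0.09 without shRPRD1B 2. That of the neuron markers was not read with a library left out.

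**Figure D5:**
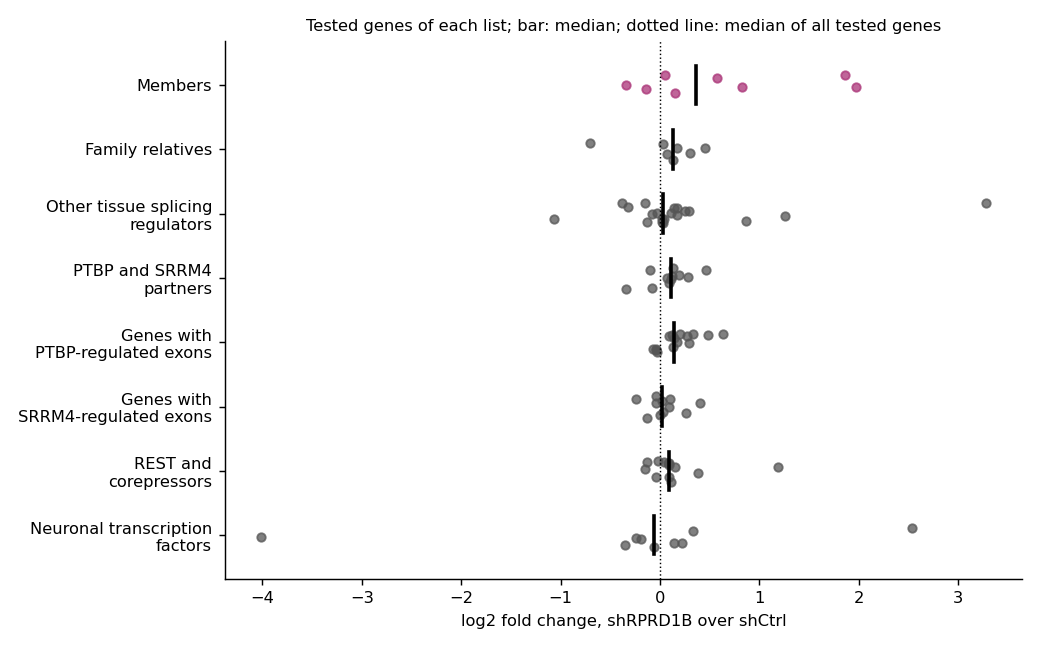
Log2 fold changes (shRPRD1B minus shCtrl) of the tested genes of each list, 1 point per gene, with a bar at the median of each list and a dotted line at the median of all tested genes. The medians of the 7 other lists shown, which do not include the cell type markers, run from -0.06 for neuronal transcription factors to 0.14 for genes with PTBP-regulated exons, and the 8 members in the fit have a median of 0.36, which rests on genes chosen for this contrast.

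The 5 genes whose levels over the 4 libraries were most like those of PTBP2 were sought among 10770 other protein-coding genes of at least 5 CPM, by the root mean square difference in log2 CPM after centring on the shCtrl mean. The nearest was CPLX1, a complexin of synaptic vesicle fusion, at a distance of 0.115, with 13.7 and 13.3 CPM in shCtrl and 42.8 and 46.9 CPM in shRPRD1B. It was followed by CAMK2N2, an inhibitor of the kinase CaMKII, at 0.163. RAB3C, a synaptic vesicle GTPase, lay at 0.166, GNAO1, a G protein subunit abundant in brain, at 0.168, and RNH1, the ribonuclease inhibitor, at 0.171. The likeness is a description over 4 libraries of 2 groups, and a large difference between the groups with little spread within them is what sets it. Few genes beside PTBP2 on chromosome 1 had enough reads to be compared with it. Within 1000 kb, 3 genes entered the fit: DPYD, which encodes the enzyme that breaks down uracil and thymine, stood at 2.53 and 3.39 CPM in shCtrl, against 3.91 and 5.00 CPM in shRPRD1B (log2 fold change 0.58 ± 0.26, edgeR adjusted p = 0.682). The pseudogenes EEF1A1P11 and RPL7P9 had log2 fold changes of -0.17 and -0.02. DPYD, the only protein-coding gene of the 3, was higher without overlap between the groups, by less than PTBP2. Whether the region changed as a whole was not tested.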

How the data were processed

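Per the submitters' processing notes, reads were trimmed with Trim Galore, aligned with HISAT2 to hg38 and counted with featureCounts. The authors deposited read counts per gene as whole numbers, with a file for each library. The sources used here do not give tool versions, annotation, strandedness or the handling of multi-mapped reads. Reads of overlapping or antisense genes therefore cannot be told apart. The members and gene lists were chosen with earlier results of these data known. Symbols were matched by gene identifier without version (62686 of 69222). Positions are those of RefSeq (GRCh38.p14), and transcript lengths, GC content and exon sequences come from GENCODE 29, which held all 10 members and 93.3% of the tested genes.

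Counts were fitted with edgeR 4.0.16 in R 4.3.3 (quasi-likelihood fit, robust, TMM factors, filterByExpr with a minimum count of 10) with group as the only term. Benjamini-Hochberg adjustment ran over 20319 genes, with a threshold of 0.05. The fit was tested on simulated data. A count of 0 was read as up to 3 counts per library, for counting error only. With 2 libraries per group no exact permutation test can go below 0.333. The libraries of a group were not duplicates: chi-square over its degrees of freedom was 8.97 between the controls and 98.6 between the knockdown libraries, where sampling noise gives about 1.

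The genes named were the 10 members, RPRD1B, REST, the family relatives, up to 4 tested genes per other list with the smallest unadjusted p, the 5 nearest to PTBP2 and the markers at 0. The other markers named, and the genes beside PTBP2, were added outside that rule. One gene that the rule names is not reported here. Alternatives were other scaling factors, DESeq2 1.42.0, limma voom 3.58.1, other filters, a replicate block, leaving out each library and, added after seeing the data, edgeR's older fit and a GC and length correction (mgcv 1.9.3).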

Additional observations from a re-analysis of the deposited data

How the results depend on the processing

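The log2 fold changes of PTBP1, PTBP2, PTBP3, RBFOX2, RBFOX3, NOVA2 and ELAVL4 kept their sign under every one of the 14 alternatives that gave a value (ELAVL4 was below the filter of 5 CPM in 2 libraries). They ranged from -0.52 to -0.17 for PTBP1, 1.73 to 1.90 for PTBP2, 0.04 to 0.25 for PTBP3, -0.25 to -0.03 for RBFOX2, 0.46 to 1.11 for RBFOX3, 0.30 to 0.80 for NOVA2 and 1.36 to 3.08 for ELAVL4. SRRM3 ranged from -0.24 to 0.30 and was negative without shRPRD1B replicate 1. With library size alone, 1 member in place of 2 lay wholly below the controls.

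PTBP2 was chosen on this contrast and every setting reuses the same libraries, so nothing is read from how often it was called. It was called in 12 of 14 alternatives, not with limma voom or with at least 5 CPM in 2 libraries. Those 2 settings called 0 genes, with 1460 and 876 at an unadjusted p under 0.05, where edgeR as reported called 6 higher and 8 lower. DESeq2 called 126 higher and 114 lower, no low-count filter 23 and 17, and the GC and length correction, added after seeing the data, 26 and 21. The older edgeR fit, also added then, called 4 higher and 3 lower. Leaving out 1 library gave 12 to 3139 higher and 36 to 3096 lower calls, the most without shRPRD1B replicate 1, where the lone knockdown library is assumed to vary like the controls. The cause was not tested. No other member was called except in those fits (3 each without shRPRD1B replicate 1 or 2).

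The replicate block called 85 higher and 56 lower. Same-numbered libraries share only a number in the labels, and their deviations correlated at 0.209 over 2 pairs. The RPRD1B log2 fold change passed the threshold with DESeq2 (-0.68) and without either shRPRD1B library, with a leave-one-out range from -0.88 to -0.50.

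DESeq2 called 1 gene among the other tissue regulators and 1 among the neuronal transcription factors, where the replicate block also called 1. Leaving out 1 library gave 0 to 3 calls among relatives, 0 to 9 among tissue regulators, 0 to 8 among PTBP and SRRM partners and among genes with PTBP-regulated exons, 0 to 5 among genes with SRRM4-regulated exons, 0 to 3 among REST and corepressors and 0 to 4 among neuronal transcription factors. Counts were too low to compare SRRM4 and ELAVL3. The list medians of the tissue regulators and of genes with SRRM4-regulated exons, near 0 as reported, were -0.00 and -0.03 with the GC and length correction, and that of the relatives went from 0.13 to 0.05. Leaving out 1 library gave medians from 0.01 to 0.18 for relatives, -0.03 to 0.24 for partners, -0.04 to 0.05 for genes with SRRM4-regulated exons and -0.24 to 0.09 for neuronal transcription factors. The 5 genes nearest to PTBP2 were all shared under the 3 other scalings, and 6 of 10 members kept their place in the order of levels with coding length.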
